A study of Ovis aries with 30 samples.

Results

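The interferon-response genes CXCL10, IRF1, ISG15, MX1, MX2 and PSMB8 were followed in epicardial adipose tissue, which is fat lying directly on the heart muscle, of 30 sheep. The 6 genes were found by their symbol or full name in the annotation of a 1-colour Agilent sheep array, where each is read by 1 of 15008 probes (ISG15 stands there under its older name ISG17), and all 6 passed the filter on dim probes. Control fetuses at term (n = 8) and Control lambs aged 2 weeks (n = 7) came from untreated ewes. CORT fetuses (n = 6) came from ewes given cortisol at 1 mg/kg/day, and CORT lambs (n = 9) from ewes given 0.5 mg/kg/day, in both cases from gestational day 115 to term. Only the ewes were infused, so the lambs had no further maternal infusion after birth. Some lambs were twins, the labels do not say which animals share a ewe or are male or female, and each animal was treated as independent. Per the labels, the exposures of the fetuses and the lambs differed, so the CORT groups of the 2 ages were not compared directly.

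Interferons are signalling proteins that cells release mainly on sensing viral nucleic acid. They bind receptors on neighbouring cells and activate transcription factors, which switch on a large set of genes. ISG15 (a ubiquitin-like protein that is attached to other proteins), MX1 and MX2 (dynamin-like GTPases that block viral replication) are classical targets of type I interferons. CXCL10, a chemokine that attracts activated T cells, IRF1, a transcription factor, and PSMB8, a catalytic subunit of the immunoproteasome that cuts peptides for presentation to T cells, also respond strongly to interferon gamma.

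Since each gene was read by a single oligo of 60 bases, its value rests on that oligo. The oligos of ISG15, IRF1 and PSMB8 are given 5′ to 3′ as the array design lists them, as examples of what was hybridised.
ISG15: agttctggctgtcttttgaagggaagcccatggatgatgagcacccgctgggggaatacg
IRF1: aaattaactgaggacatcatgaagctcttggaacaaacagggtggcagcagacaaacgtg
PSMB8: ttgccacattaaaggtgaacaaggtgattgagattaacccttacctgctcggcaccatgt
The oligos of the related genes MX1 and MX2, which are direct neighbours in the RefSeq gene table (assembly ARS-UI_Ramb_v3.0), shared at most 24 of 60 bases at any ungapped offset, and the other pairs of oligos shared 18 to 23. The hexamer AATAAA, the usual polyadenylation signal, occurred on the listed strand in the oligos of CXCL10 and MX2 and in 5.63% of all 60-base oligos of the array. None of the 6 oligos held it on the other strand, against 3.7% of all oligos.

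Values are background-corrected, quantile-normalized intensities on the log2 scale, and the level of one probe says nothing about the level of another. The median spot had an intensity of 130 to 234, depending on the array, where the median background was 34 to 46. All members but CXCL10 were well above background on all 30 arrays. CXCL10 was well above background in all 16 lambs but in only 5 of 8 Control fetuses and 4 of 6 CORT fetuses, so that its fetal level lay near the detection limit. Probes of the adipocyte markers FABP4, LEP, LPL, PLIN1, PLIN2, PPARG and UCP1 were well above background in all 30 animals. Each slide of arrays held animals of a single age from both treatments, 2 slides for fetuses and 2 for lambs, which means that slide and age cannot be told apart.

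In these genes 2 animals stood apart. CORT lamb 2 had the highest value of all 9 CORT lambs for all 6 members, and Control fetus 2 had the lowest of the 8 Control fetuses for all 6. In Control fetus 2 the mean level of the 2 muscle markers tested (MB and TNNC2) was 15.997, against 9.94 to 11.38 in the other Control fetuses, and its mean myeloid, T cell, endothelial and erythroid marker levels and its level of the leukocyte marker ITGB2 were below those of all 7 others. The part of this in its interferon-gene values was not tested, and results that rest on either animal are given with and without it.

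**Figure D1:**
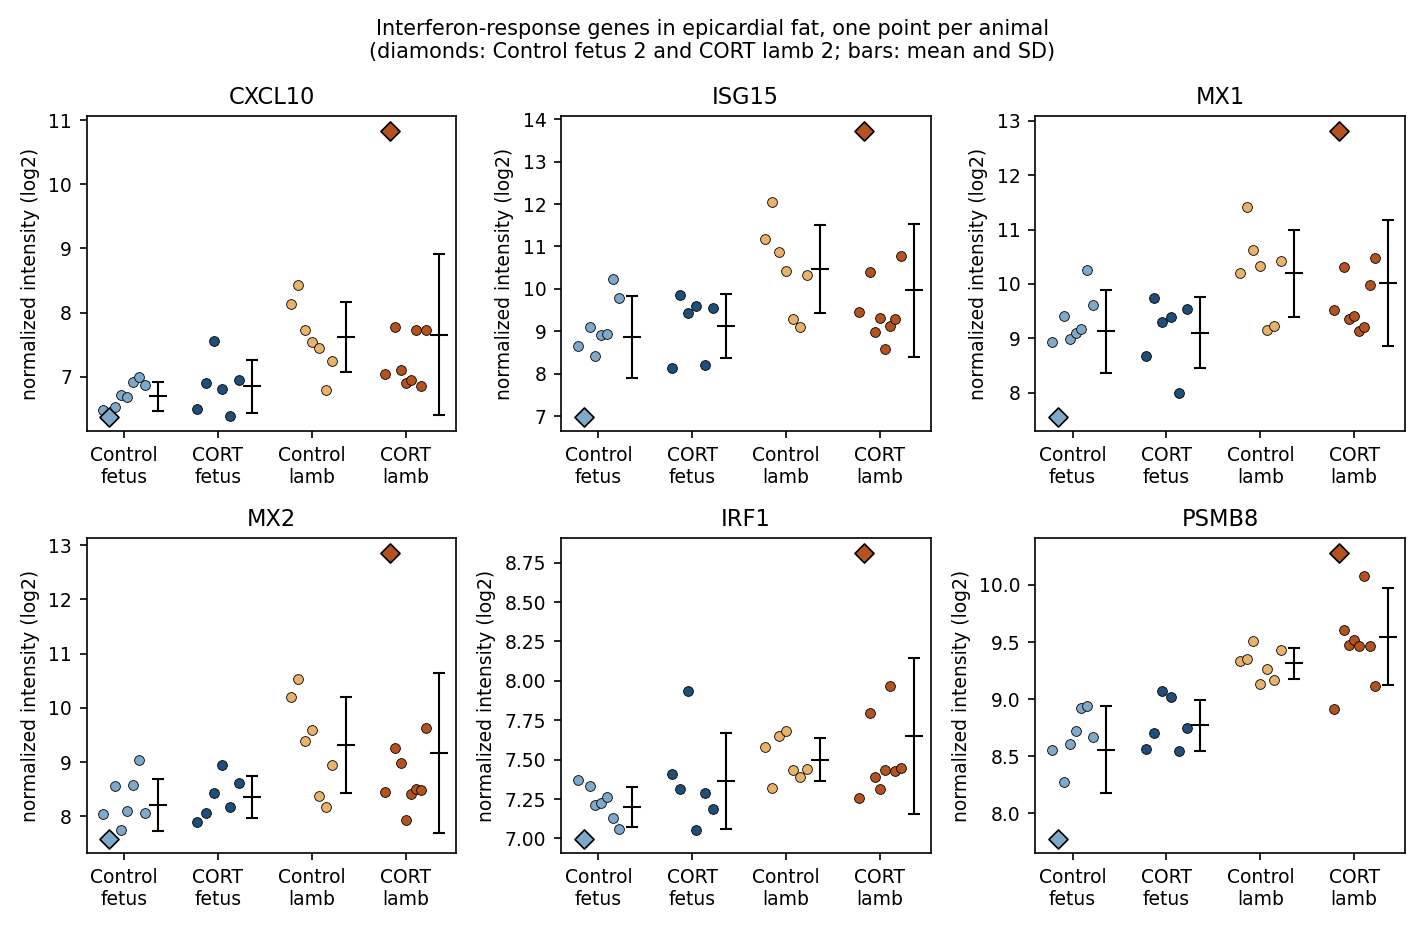
Normalized log2 intensity of the 6 genes (vertical axes, each panel on its own scale) in each animal of the 4 groups. Points are animals, diamonds mark Control fetus 2 and CORT lamb 2, and the bars beside the points give the mean and SD. CORT lamb 2 reached 13.73 for ISG15 while the other 8 CORT lambs lay between 8.58 and 10.78, and for PSMB8, the Control lambs (9.13 to 9.51) lay above all Control fetuses (up to 8.94).

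All 6 interferon-response genes were higher in Control lambs than in Control fetuses. This comparison sets untreated animals at the end of gestation beside other untreated animals 2 weeks after birth, which lay on other slides. Limma called all 6 members higher at a Benjamini-Hochberg adjusted p under 0.05, compared with 20.3% of all 12837 probes tested that were called higher, 21.4% called lower and 41.7% called in either direction. At an unadjusted p under 0.05 the count was 6 of 6, against 48.8% of all probes. The median difference over the 6 genes was 1.00 on the log2 scale, against -0.01 over all probes tested.

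Among the antiviral effectors, ISG15 ranged from 6.99 to 10.22 in Control fetuses (median 8.92) and from 9.11 to 12.04 in Control lambs (median 10.43). The lamb mean was 1.59 ± 0.47 (SE) higher on the log2 scale, a 3.01-fold difference with an adjusted p of 0.0117. Of the 7 Control lambs 5 lay above every Control fetus, and the groups overlapped. MX1 ranged from 7.56 to 10.25 in Control fetuses (median 9.13) and from 9.15 to 11.42 in Control lambs (median 10.33). It was higher by 1.06 ± 0.37 (SE), or 2.09-fold, with an adjusted p of 0.0275. MX2 ranged from 7.59 to 9.03 in Control fetuses (median 8.08) and from 8.17 to 10.53 in Control lambs (median 9.40). It was higher by 1.103 ± 0.33 (SE), or 2.15-fold, with an adjusted p of 0.0122. For both MX genes 4 of the 7 lambs lay above all fetuses, and the groups overlapped.

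The chemokine CXCL10 ranged from 6.37 to 7.00 in Control fetuses (median 6.70) and from 6.79 to 8.43 in Control lambs (median 7.54). The difference was 0.93 ± 0.19 (SE), or 1.902-fold, with an adjusted p of 0.00107. Its size depended on how background was treated, since the intensity already corrected by the scanner software gave 2.43. Only the lowest lamb lay within the fetal range.

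The transcription factor IRF1 had the smallest difference. It ranged from 7.00 to 7.37 in Control fetuses (median 7.22) and from 7.32 to 7.68 in Control lambs (median 7.44), and was higher by 0.30 ± 0.072 (SE), or 1.23-fold, with an adjusted p of 0.00298. With the intensity corrected by the scanner software it was 0.585. PSMB8 ranged from 7.78 to 8.94 in Control fetuses (median 8.64) and from 9.13 to 9.51 in Control lambs (median 9.34). The difference was 0.76 ± 0.14 (SE), or 1.69-fold, with an adjusted p of 0.000442. PSMB8 was the member whose Control lambs and Control fetuses did not overlap at all, which held in this direction for 7.39% of probes.

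Without Control fetus 2 all 6 genes still passed, with differences from 0.27 for IRF1 to 1.32 for ISG15. MX1 missed the threshold without Control lamb 2 (adjusted p 0.0633) or Control lamb 3 (0.0544), and also with slide as a random block (0.0651). With all 30 arrays in a single fit, which shares the wider spread of the CORT lambs, 3 of the 6 genes passed and IRF1 (0.132), MX1 (0.0506) and MX2 (0.0623) did not. Slides of the same age also differed. Control lambs of the 2 lamb slides had means of 11.13 and 9.58 for ISG15, 10.64 and 9.59 for MX1, and 9.93 and 8.50 for MX2. Control fetuses had 8.29 and 9.46, 8.72 and 9.53, and 7.99 and 8.44, so the lower lamb slide lay close to the higher fetal slide. For CXCL10, IRF1 and PSMB8 the lower lamb mean was 7.16, 7.42 and 9.29, and the higher fetal mean 6.86, 7.23 and 8.81.

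Of other genes of the interferon pathway, 92 were listed, 15 had a named probe on the array and 14 could be tested, each through its brightest probe. Of these, 4 were higher in Control lambs and 1 was lower, and the median difference was 0.12. With 41.7% of all probes called in either direction, 5 of 14 is not above the background. IFNAR2, a subunit of the type I interferon receptor, was higher by 0.28 (adjusted p 0.0102), but its dimmer probe did not pass (0.17, 0.0864). TLR3, a sensor of double-stranded RNA, was higher by 0.58 (0.000993), and IL18, a cytokine that promotes interferon gamma production, by 0.91 (4.65e-07), or 1.49 with the intensity corrected by the scanner software. B2M, the light chain of MHC class I molecules, was higher by 1.30 (0.000193). NFKBIA, the inhibitor of NF-kB, was 0.50 lower (0.0166), a call that was lost under 4 of 9 other settings.

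The remaining 9 pathway genes did not pass. They were the receptor subunit IFNAR1 (difference 0.00), the cytokines IFNG (-0.10) and IL15 (0.12), the regulators IRF2 (0.13), IRF3 (-0.01) and MYD88 (0.00), the nucleic acid sensors TLR7 (0.13) and TLR9 (-0.03), and PSME2, a proteasome activator subunit (0.11). MYD88 and TLR9 lay near the detection limit, well above background in only 3 and 2 of the 7 Control lambs. Probes of a gene did not always give the same answer. For IL15, 2 of the 3 dimmer probes passed, with differences of 0.37 and 0.20, and for TLR7 the dimmer probe passed with 0.18.

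**Figure D2:**
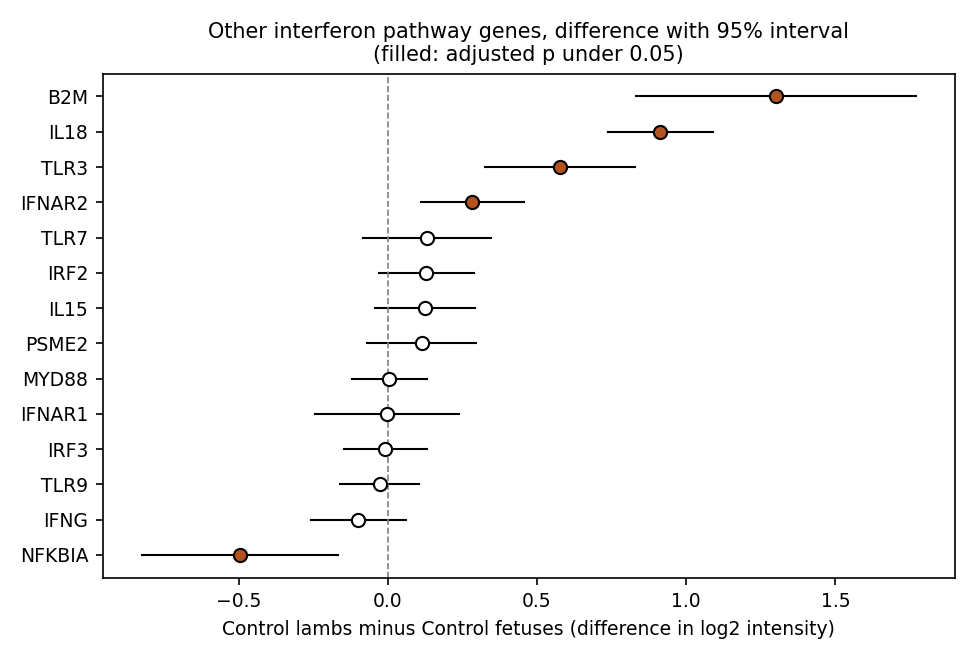
Difference between Control lambs and Control fetuses (horizontal axis, log2 intensity) for the 14 other interferon pathway genes tested, 1 probe a gene. Points are differences of group means, lines their 95% intervals and filled points passed the adjusted threshold. B2M lay farthest to the right at 1.30 and NFKBIA farthest to the left at -0.50.

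Some immune cell markers also differed. Of 5 myeloid markers tested 3 were higher in Control lambs, FCER1G (a signalling chain of Fc receptors) by 0.85, CD14 by 0.28 and CYBB (a subunit of the phagocyte oxidase) by 0.28. The mean level of the 5 ranged from 7.34 to 7.72 in Control fetuses and from 7.52 to 8.06 in Control lambs. The leukocyte integrin ITGB2 was higher by 0.67. Of 5 T cell markers 0 were higher and 1, CD247, was lower (-0.36), and the B cell marker CR2 was not called (0.15, adjusted p 0.398). Beside these counts stand the 20.3% of all probes called higher and 21.4% called lower. In bulk tissue, more cells of a type and more RNA per cell cannot be told apart, and the part of these cells in the members' higher values in Control lambs was not tested.

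Maternal cortisol was compared within each age, in the question whether exposure before birth changed the fat. In CORT lambs compared to Control lambs 0 of 6 members passed, and limma called 0% of all probes at the adjusted threshold. At an unadjusted p under 0.05 the count was also 0 of 6 members, against 3.56% of all probes. The difference was -0.50 for ISG15 (95% interval -1.80 to 0.80), -0.17 for MX1 (-1.14 to 0.80), -0.15 for MX2 (-1.35 to 1.05) and 0.04 for CXCL10 (-0.93 to 1.01). It was 0.15 for IRF1 (-0.22 to 0.52) and 0.23 for PSMB8 (-0.09 to 0.56).

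**Figure D3:**
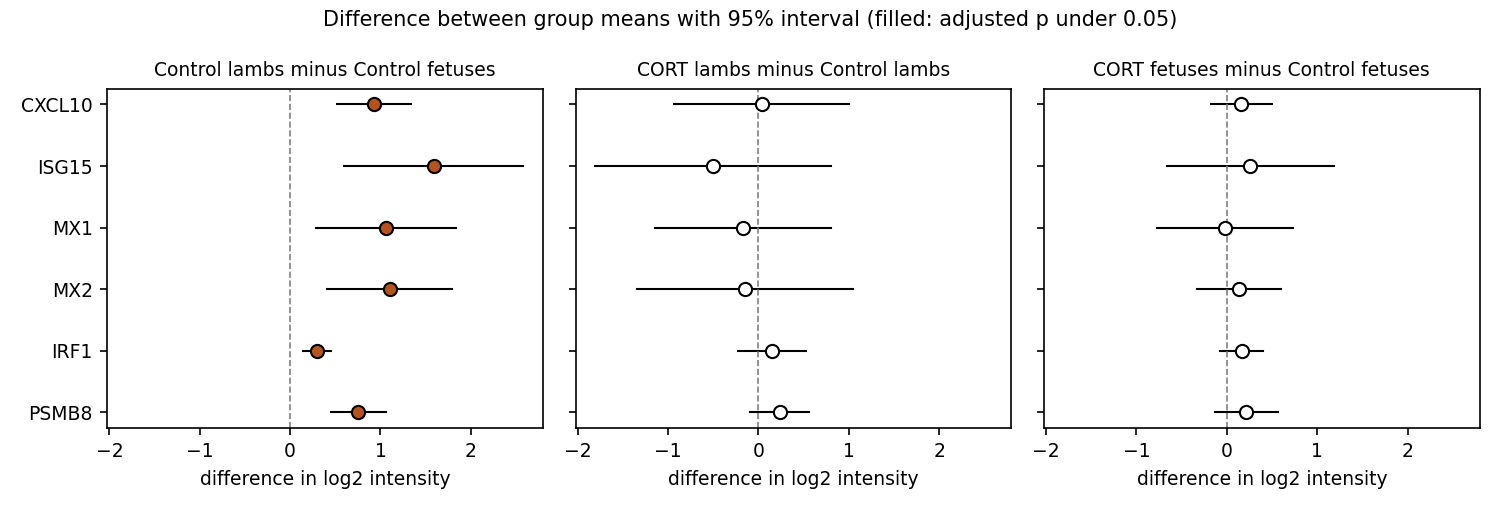
Differences between group means on the log2 scale (horizontal axis) of the 6 genes in 3 comparisons, with 95% intervals. Filled points passed the adjusted threshold, which held for all 6 genes in the left panel (from 0.30 for IRF1 to 1.59 for ISG15) and for 0 in the panels of cortisol exposure.

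CORT lamb 2 weighed on these values. Medians of ISG15 were 9.32 in CORT lambs and 10.43 in Control lambs, a wider gap than between the means of 9.97 and 10.47. Without CORT lamb 2 the differences were -0.97 for ISG15, -0.52 for MX1, -0.61 for MX2 and -0.36 for CXCL10, in place of -0.50, -0.17, -0.15 and 0.04. IRF1 moved from 0.15 to 0.00435 and PSMB8 from 0.23 to 0.14, and still 0 of 6 passed. Within the 2 lamb slides the ISG15 difference was -0.49 and -0.15. The ISG15 means were 11.13 in Control and 10.64 in CORT lambs on the former slide, and 9.58 and 9.42 on the latter. CORT lamb 2 lay on the former, and without it, a setting chosen after seeing the data, the CORT mean there was 9.61 and the difference -1.52.

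In CORT fetuses compared to Control fetuses 0 of 6 members passed as well, and 0% of all probes did. At the unadjusted level the count was 0 of 6 against 2.37% of all probes. The 2 fetal groups overlapped for all 6 members, as for all but 0.0157% of probes. Differences ran from -0.02 for MX1 (95% interval -0.77 to 0.73) to 0.26 for ISG15 (-0.67 to 1.18). They were 0.16 for CXCL10 (-0.18 to 0.50), 0.16 for IRF1 (-0.08 to 0.40), 0.14 for MX2 (-0.33 to 0.60) and 0.22 for PSMB8 (-0.13 to 0.56). Without Control fetus 2 the ISG15 difference was -0.01. On the 2 fetal slides the sign differed for 4 of 6 members, ISG15 (0.85 and -0.34), MX1 (0.52 and -0.56), CXCL10 (0.46 and -0.15) and PSMB8 (0.48 and -0.04). Control fetus 2 lay on the former slide, and without it, a setting chosen after seeing the data, the values there were 0.42 for ISG15, 0.13 for MX1, 0.42 for CXCL10 and 0.30 for PSMB8.

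The cortisol effect of the lambs less that of the fetuses, a difference between 2 exposures as well as 2 ages, passed for 0 of 6 members and 0% of all probes. At the unadjusted level it was 0 of 6 against 2.04%. It was -0.76 for ISG15 (95% interval -2.42 to 0.91) and lay between -0.29 and 0.02 for the other 5. Of the 14 other pathway genes 0 passed in either cortisol comparison or in their difference, at the adjusted or the unadjusted level. The smallest unadjusted p in lambs was that of NFKBIA (0.0991, difference 0.23), followed by IRF3 (0.15) and IRF2 (0.07), and in fetuses those of IRF2 (0.156, difference 0.14), IFNG (-0.11) and IFNAR2 (0.13).

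By group mean, the order from low to high was Control fetus, CORT fetus, Control lamb and CORT lamb for CXCL10, IRF1 and PSMB8, and Control fetus, CORT fetus, CORT lamb and Control lamb for ISG15 and MX2. MX1 differed from the latter only in the order of the 2 fetal groups. The CXCL10 order rested on CORT lamb 2, since the mean of the other 8 CORT lambs was 7.26 against 7.62 in Control lambs. The fetal order of ISG15 turned without Control fetus 2, with means of 9.145 in the other Control fetuses and 9.133 in CORT fetuses. Neighbours of the same age in these orders did not differ beyond their spread.

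In each group the spread between animals was larger in ISG15, MX1 and MX2 than in IRF1 and PSMB8. It was shared most firmly by ISG15 and MX1, which varied together at both ages with and without CORT lamb 2 or Control fetus 2. In Control lambs the SD of ISG15 was 1.03 and that of PSMB8 0.14. Part of this spread lay between slides. For ISG15 the 4 Control lambs of one slide (10.43 to 12.04) all lay above the 3 of the other (9.11 to 10.32). The same held for MX2 and CXCL10, but not for MX1. Differences between slides and between the animals on them cannot be told apart. In CORT lambs the SD of ISG15 was 1.57 with CORT lamb 2 and 0.73 without it. That lamb had 13.73 for ISG15, 18.82-fold above the mean of the other 8, and it was 17.7-fold above them for MX2, 11.98-fold for CXCL10 and 8.84-fold for MX1. It was 2.48-fold above the others for IRF1 and 1.77-fold for PSMB8, whose value of 10.28 lay close to the next lamb at 10.08. Of 12771 probes with values on all arrays, 27 were at least 4-fold above the median of the other CORT lambs in this animal, and 4 of these were members. In the other 29 animals such probes numbered 2 to 84, and 0 of them were members. At least 4-fold below the others of its group, CORT lamb 2 had 28 probes. CORT lamb 5 had as many, and only Control lamb 3 had more (40). The array of CORT lamb 2 also had the lowest median spot intensity of all arrays (129.5, where the highest was 234.5). Its share of spots well above background was 70.4%, where arrays ranged from 70.4% to 83.5%. The part of array signal in the values of CORT lamb 2 was not tested.

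Its cell markers were not alike. The mean myeloid level of CORT lamb 2 was 8.11, above 7 of the 8 others (7.68 to 8.58), and its mean T cell level of 6.99 was above 3 of 8. Its level of the B cell marker CR2 was the lowest of the group (6.35 against 6.82 to 8.93), and its mean adipocyte level the highest (12.3 against 11.1 to 12.1). Its mean erythroid level was the highest too (11.2 against 9.26 to 10.9), and its mean endothelial level the lowest (8.72 against 8.75 to 9.13). The part of these in its interferon-gene values was not tested.

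To see which genes rose and fell together between animals, group means were removed and Pearson's r was taken over the 16 lambs and over the 14 fetuses. P-values came from 100000 permutations within groups, two-sided, adjusted over the 30 relations of both ages. In lambs 10 of 15 pairs passed, and in fetuses 9 of 15. Removing CORT lamb 2 left 7 in lambs, and removing Control fetus 2 left 2 in fetuses. The share of all probe pairs that would pass was not computed. As a background, the 95th percentile of r with a member over 12770 other probes was 0.482 (IRF1) to 0.549 (MX2) in lambs. In fetuses it was 0.539 (IRF1) to 0.665 (PSMB8), close to called relations such as MX2 with PSMB8 (0.640).

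ISG15 and MX1 were the closest pair. In lambs r was 0.973 (Spearman's rho 0.941, permutation, adjusted p 0.00015 and 0.0003), with 0.980 and 0.904 within the 2 slides. It was 0.901 without the 2 lambs farthest from the median ISG15 value and 0.930 without CORT lamb 2. In fetuses r was 0.964 (rho 0.978, permutation, adjusted p 0.0002 and 0.0003), with 0.971 and 0.9747 within slides, 0.913 without the 2 farthest fetuses and 0.936 without Control fetus 2. In fetuses 0 other probes of the array had a higher r with ISG15 than MX1 had, and in lambs 3 did.

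MX2 and CXCL10 joined these genes in lambs. MX2 had an r of 0.958 with ISG15 and 0.931 with MX1, which were 0.888 and 0.813 without CORT lamb 2 and passed there too (permutation, adjusted p 0.0007 and 0.00454). CXCL10 had an r of 0.953 with MX2, 0.928 with ISG15 and 0.879 with MX1. Without CORT lamb 2 these were 0.842, 0.816 and 0.646, all past the threshold (permutation, adjusted p 0.00216, 0.0045 and 0.0371). On the slide without that lamb the r of CXCL10 was 0.642 with MX2, 0.516 with ISG15 and 0.239 with MX1. All 6 pairs among ISG15, MX1, MX2 and CXCL10 passed in lambs, by r and by rho (rho from 0.691 to 0.941). Without the 2 lambs farthest from the median, their r lay between 0.508 and 0.901.

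In fetuses 5 of the 6 pairs among the same 4 genes passed, the exception being CXCL10 with MX2. MX2 had an r of 0.710 with ISG15 and 0.668 with MX1 (permutation, adjusted p 0.0173 and 0.0274), and CXCL10 of 0.668 with ISG15 and 0.658 with MX1 (0.0121 and 0.0173). CXCL10 with MX2 did not pass (0.458, 0.124). The 4 that passed had a rho between 0.622 and 0.727, and an r between 0.470 and 0.826 without the 2 farthest fetuses. Without Control fetus 2 each of these 4 called relations missed the threshold, at r between 0.559 and 0.647. With slide means removed too, CXCL10 missed the threshold with ISG15 (0.598, permutation, adjusted p 0.0803) and MX1 (0.559, 0.0755). Over all fetuses, 415 other probes had a higher r with ISG15 than MX2 had, and 605 had a higher r with MX1. For CXCL10, 209 other probes had a higher r than ISG15 had, and 232 a higher r than MX1 had. Whether the relations differed between the ages was not tested, and CXCL10 was near background in 5 of the 14 fetuses.

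**Figure D4:**
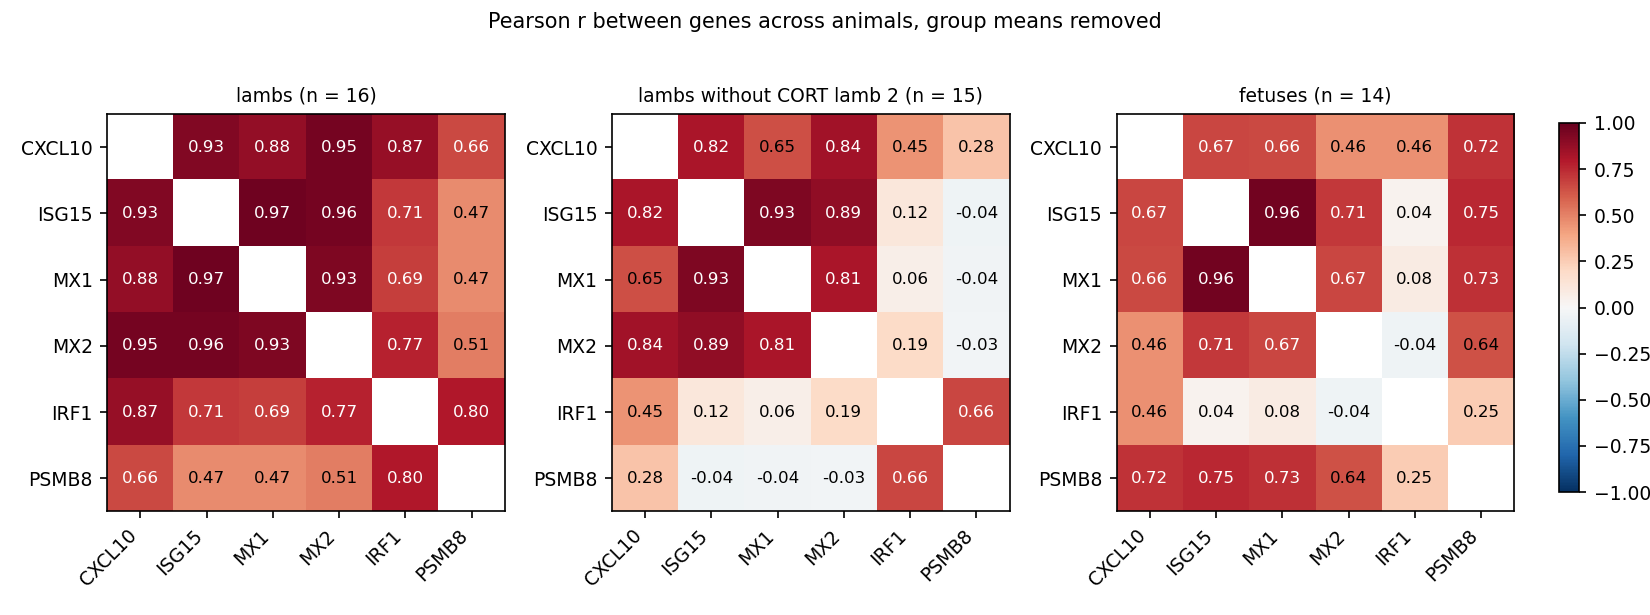
Pearson r (number and colour of each square) between the 6 genes across animals with group means removed, in 16 lambs, in the 15 lambs without CORT lamb 2 and in 14 fetuses. ISG15 and MX1 had r of 0.973, 0.930 and 0.964 in the 3 panels, while the r of PSMB8 with ISG15 was 0.470, -0.043 and 0.753.

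Of the 8 relations of IRF1 and PSMB8 with the 4 genes above, 3 passed in lambs, and 0 passed without CORT lamb 2. Other lambs mattered too. With each of the 16 lambs left out in turn, IRF1 missed the threshold with MX2 in 5 runs and with CXCL10 in 1. PSMB8 missed it with CXCL10 in 3 of these runs. IRF1 did not pass with ISG15 or MX1 over all lambs, but passed in 3 runs with ISG15 and in 2 with MX1. With ISG15, IRF1 had an r of 0.709 with CORT lamb 2 and 0.117 without it, and PSMB8 of 0.470 and -0.043. IRF1 passed with CXCL10 (0.869, permutation, adjusted p 0.0133) and MX2 (0.770, 0.0399), and without CORT lamb 2 these were 0.446 and 0.191 and did not pass. Their rho was 0.674 and 0.509 (permutation, adjusted p 0.0173 and 0.0598), and r without the 2 farthest lambs was 0.696 and 0.332. PSMB8 passed with CXCL10 (0.659, rho 0.612, permutation, adjusted p 0.0322 and 0.0334), but r was 0.282 without CORT lamb 2 and 0.303 without the 2 farthest lambs. With slide means removed too, these 3 relations missed the threshold (permutation, adjusted p 0.0514, 0.148 and 0.0929). IRF1 and PSMB8 themselves had an r of 0.804 (rho 0.635, permutation, adjusted p 0.0044 and 0.0276) that stayed past the threshold at 0.664 without CORT lamb 2 (0.0437), with 0.870 and 0.7998 within slides. Without the 2 lambs farthest from the median of IRF1 it fell to 0.374, so that it rests on those animals.

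In fetuses PSMB8 passed with all of ISG15, MX1, MX2 and CXCL10, and IRF1 with 0 of them. PSMB8 had an r of 0.753 with ISG15, 0.729 with MX1, 0.640 with MX2 and 0.722 with CXCL10 (permutation, adjusted p 0.0146, 0.0173, 0.0354 and 0.0005). By rho the relations with MX2 and CXCL10 passed (0.644 and 0.767, permutation, adjusted p 0.0408 and 0.00759), and those with ISG15 and MX1 did not (0.556 and 0.481, adjusted p 0.0787 and 0.139). Without the 2 farthest fetuses r was 0.410 with ISG15, 0.344 with MX1, 0.523 with MX2 and 0.745 with CXCL10. Without Control fetus 2 the relation with CXCL10 remained past the threshold (0.771, 0.0044), and those with ISG15, MX1 and MX2 were 0.524, 0.465 and 0.521 and missed it. With slide means removed too, the relations with ISG15, MX1 and MX2 were 0.629, 0.645 and 0.585 and missed it as well (permutation, adjusted p 0.0822, 0.0788 and 0.0788). The 5 relations of IRF1 lay between -0.043 and 0.461 and 0 of them passed. On the later fetal slide IRF1 and ISG15 had an r of -0.822, and on the earlier one 0.461.

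**Figure D5:**
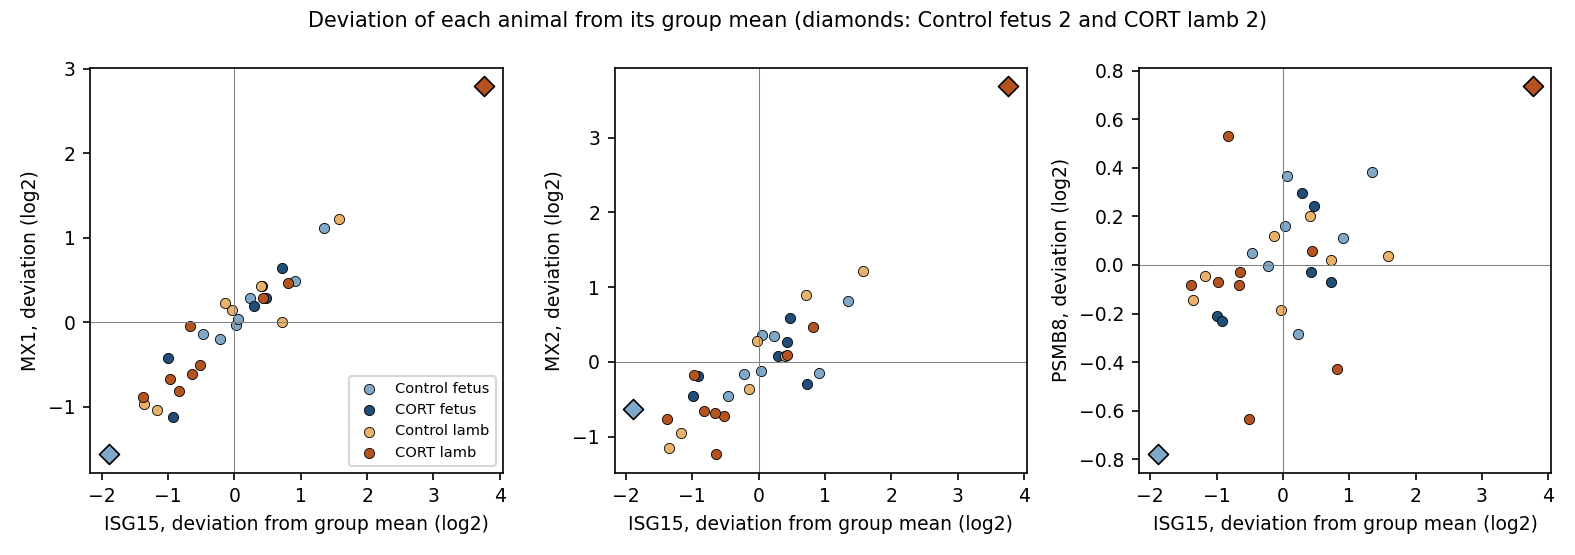
Deviation of each of the 30 animals from its group mean (log2) for ISG15 (horizontal axes) against MX1, MX2 and PSMB8 (vertical axes, each on its own scale), coloured by group. MX1 followed ISG15 closely (r of 0.973 in lambs and 0.964 in fetuses), while in the PSMB8 panel the r in lambs of 0.470 was -0.043 without CORT lamb 2, the upper right diamond.

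Of the named genes compared outside the 6 members, RTP4, a receptor-transporting protein that is itself known to be interferon-induced, had the pattern most like ISG15, MX1 and MX2. Over all 30 animals with group means removed its r was 0.962 with ISG15, 0.941 with MX1 and 0.908 with MX2, as a description with no test. With ISG15 it was 0.932 in lambs without CORT lamb 2 and 0.888 in fetuses without Control fetus 2. The level of RTP4 ranged from 8.09 to 10.05 in Control fetuses, 9.03 to 10.07 in CORT fetuses, 9.41 to 11.45 in Control lambs and 9.53 to 13.31 in CORT lambs, where CORT lamb 2 was again highest. RTP4 was 1.32 ± 0.30 (SE) higher in Control lambs than Control fetuses (adjusted p 0.00232).

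For the other positions the r values were lower. TLR3 was next after RTP4 for ISG15 (0.693) and MX1 (0.661), followed by PSME2 (0.625 and 0.629). For MX2, RTP4 was followed by SIRT4, a mitochondrial sirtuin (0.688), and by AQP5, a water channel (0.685). These were nearest among named genes only, since 41 and 45 other probes of the array had a higher r with MX2. AQP5 lay near the detection limit, well above background in only 4 of 7 Control lambs and 2 of 9 CORT lambs. For CXCL10 the order was RTP4 (0.840), PSME2 (0.755) and SIRT4 (0.713), and for IRF1 it was PSME2 (0.713), SIRT4 (0.656) and IFNAR2 (0.644). The relations with IRF1 were 0.203, 0.306 and 0.126 in lambs without CORT lamb 2, against 0.717, 0.807 and 0.690 with it. Several others were also low in one age. SIRT4 had an r of 0.071 with CXCL10 and 0.211 with MX2 in fetuses, against 0.612 and 0.471 in lambs without CORT lamb 2. PSME2 had an r of 0.211 with ISG15 and 0.225 with MX1 in fetuses, and -0.097 and -0.086 without Control fetus 2. SIRT4 was 0.30 lower in Control lambs than in Control fetuses (adjusted p 0.0106), while the difference of AQP5 was -0.06 (0.591).

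The genes nearest to PSMB8 were others. They were the MHC class II chain MHCII-DRB1 (r of 0.744), the bacterial lipoprotein sensor TLR2 (0.709) and the MHC class II chain OVAR-DQA1 (0.698). In lambs without CORT lamb 2 these were 0.587, 0.662 and 0.763. In fetuses they were 0.869, 0.790 and 0.748, and without Control fetus 2 they were 0.673, 0.687 and 0.513. MHC class II molecules present peptides on antigen-presenting cells. MHCII-DRB1 and OVAR-DQA1 were higher in Control lambs than in Control fetuses by 1.75 ± 0.24 (SE) and 1.15 ± 0.19 (SE), with adjusted p of 2.77e-05 and 0.000173. TLR2 was not called by limma in this comparison (0.13, adjusted p 0.318). MHC genes have close copies and many alleles, so these probes may read more than the gene they are named for.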

How the data were processed

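Per the labels, epicardial fat RNA was labelled with Cy3 and hybridised to Agilent 1-colour sheep arrays, and the authors extracted the images with Feature Extraction 10.1.1.1. The deposited scanner files hold the mean foreground and median background intensity of each spot. A matrix of log2 values that the authors had normalized with limma was deposited as well. Its 16 lamb columns followed the scanner values and served as an alternative, and its fetal columns, which did not, were left out. Background was removed from the deposited intensities by normexp with an offset of 50 (limma 3.58.1, R 4.3.3), which compresses differences of dim probes such as CXCL10. After this step 3 to 17 outlier spots per array were removed. The 30 arrays were quantile normalized together, and 12837 of 15008 probes were 10% brighter than the 95th percentile of the 77 negative controls on at least 6 arrays and entered two-sided tests by lmFit and eBayes of limma on the 2 groups compared (on all 4 groups for the difference between cortisol effects). Adjustment was by Benjamini-Hochberg over all probes tested. Array number limits the precision. The limma p-values set a difference between group means against the spread between animals, which here includes differences between slides. Of the probes, 1531 were given 1 of 954 gene names from the array annotation and the RefSeq table, and 1 other gene is not reported here, in the pathway list or among the nearest genes. Permutations used numpy 2.4.6. The procedure was tested on simulated normal data without slide effects or animals that stood apart. The simulation therefore does not cover these features of the data. The members, gene lists and tests were chosen with earlier results of these data known, so a count over the members is a description. Named were the 6 members, the pathway genes past the adjusted threshold (in cortisol comparisons where 0 passed, the 3 with the smallest unadjusted p) and the 3 named genes nearest to each member by r. Marker lists covered adipocytes, myeloid, T, B and endothelial cells, leukocytes, muscle and erythroid cells. Of 2 erythroid and 2 muscle markers 0 differed between Control lambs and Control fetuses, and of 5 endothelial markers 2 were lower. Of 7 adipocyte markers 2 were higher (LEP and LPL) and UCP1 was lower. Alternatives were other background and scaling methods, other filters on dim probes, array weights, the replicate number or the slide as a block, all arrays in 1 fit and each animal left out.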

Additional observations from a re-analysis of the deposited data

Results flagged for a closer look

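In 24 sets of values, 6 genes in each of 4 groups, the gap between the highest or lowest animal and its neighbour was set against the range of the group, and about 1 set in 20 passes the 95% limit by chance. It passed in 5 sets, each time for CORT lamb 2 at the top of the 9 CORT lambs, where the limit is 0.493. These 5 sets read the same animal through genes that were correlated between lambs. They are not independent, so their number cannot be set against the rate by chance. The gap as a share of the range was 0.769 for CXCL10, 0.545 for IRF1, 0.574 for ISG15, 0.634 for MX1 and 0.655 for MX2. PSMB8 did not pass in this animal, and Control fetus 2 did not pass for any member. The labels give no health record of the animal, and the cause was not tested.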

How the results depend on the processing

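The 2 cortisol comparisons and their difference gave 0 members and 0 pathway genes past the adjusted threshold under every alternative run. For Control lambs against Control fetuses, 5 to 6 members passed with an animal left out, and 3 with all 30 arrays in 1 fit. Of the pairs of members, 7 to 12 passed in lambs with an animal left out (7 without CORT lamb 2). In fetuses 2 to 9 passed (2 without Control fetus 2, 4 without Control fetus 7), and 4 with group and slide means removed. Same-numbered animals were not treated as pairs, since the labels give no shared origin and r between them ran from -0.06 to 0.41 in lambs, from -0.19 to 0.41 in fetuses and from -0.23 to 0.24 between the Control groups. As a description, 4 of 7 lambs correlated best with their own number, 1 of 6 fetuses and 0 of 7 between the Control groups. Same-numbered lambs lay on the same slide, and slide means were not removed here. A shared slide and a shared origin therefore cannot be told apart. With the replicate number as a block, the difference of MX1 between Control fetuses and Control lambs was 1.13 and that of MX2 1.08, both past the threshold no longer (adjusted p 0.0638 and 0.0603), as was that of NFKBIA (0.0530). The block moved the calls over all probes from 2608 higher and 2741 lower to 2270 and 2366.

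Differences near 0 changed sign. In lambs CXCL10 was -0.14 with the scanner software's intensity, -0.15 with 75th percentile scaling, -0.26 with array weights and -0.0482 with the deposited log2 values, and MX2 was 0.0238 with slide as a block. In fetuses MX1 was 0.00453 and 0.0267 under the former 2 settings and 0.25 with the replicate block. In the difference of effects, IRF1 was 0.0604 with the replicate block and 0.0152 with slide as a block, and PSMB8 was -0.0879 with the scanner software's intensity, -0.11 with 75th percentile scaling and -0.0331 with cyclic loess. With an animal left out, the lamb difference of CXCL10 ranged from -0.36 to 0.17, of MX1 from -0.52 to 0.0342 and of MX2 from -0.61 to 0.0535. The fetal difference of ISG15 ranged from -0.0118 to 0.46 and of MX1 from -0.24 to 0.20. The difference of effects ranged from -0.52 to 0.0185 for CXCL10, -0.16 to 0.10 for IRF1, -0.50 to 0.0735 for MX1 and -0.0748 to 0.13 for PSMB8. The fetal r of IRF1 with MX2 was 0.0882 with the scanner software's intensity, 0.281 with 75th percentile scaling, 0.280 with cyclic loess and 0.331 with group and slide means removed. With an animal left out, the lamb r of PSMB8 ranged from -0.0431 to 0.624 with ISG15, -0.0386 to 0.662 with MX1 and -0.0259 to 0.657 with MX2. The fetal r of IRF1 ranged from -0.278 to 0.539 with CXCL10, -0.206 to 0.130 with ISG15, -0.153 to 0.156 with MX1 and -0.195 to 0.180 with MX2. The causes were not tested. Of the members, array signal limits CXCL10, in fetuses.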
